A study of Mus musculus with 6 samples.

Results

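The genes described here encode the core of the TGF-beta pathway: 2 ligands (Tgfb1, Tgfb2), the 2 receptors (Tgfbr1, Tgfbr2), 3 signalling Smads (Smad2, Smad3, Smad4) and 2 nuclear corepressors (Tgif1, Skil). They were taken by gene symbol, and all 9 were found among the 24594 genes of the count table. RNA-seq was done on adult epithelial organoids of the proximal small intestine, from mice with the TetON-hYAP/H2B-mCherry genotype, in which doxycycline switches on a human YAP with the S127A mutation together with a red fluorescent histone. In the doxycycline group (3 libraries) the drug was present at 1 µg/ml for 48 h, starting at passage; the control group (3 libraries) had the same genotype and no drug. All cultures had EGF, R-spondin1 and Noggin, a BMP antagonist, in the medium. No group had doxycycline without the transgene, so the drug and active YAP cannot be told apart, and the human transgene itself was not analysed here. The labels describe the animals as adult with no age in weeks. They take adult crypts from 1 individual per sample but do not say whether the 3 replicates of a group came from different animals, so p-values measure the spread between these libraries only.

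As background, TGF-beta is secreted in a latent form and, once released, binds the type II receptor TGFBR2, which then phosphorylates the type I receptor TGFBR1. TGFBR1 phosphorylates SMAD2 and SMAD3, which join SMAD4 and enter the nucleus to change transcription. SKIL (also called SnoN) and TGIF1 bind these Smads and recruit repressors. In intestinal epithelium the pathway is known for halting proliferation, and inactivating its receptors or SMAD4 is a common step in intestinal tumours.

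The receptor genes had fold changes of opposite sign. Tgfbr2 rose 1.83-fold with doxycycline, while Tgfbr1 was at 0.491 of its control level and just missed the threshold. Skil rose 2.63-fold. No call was made for the ligands, the 3 Smads or Tgif1. Of the 8 members that passed edgeR's expression filter, 2 were higher and 0 were lower at an adjusted p under 0.05 (edgeR's quasi-likelihood test, Benjamini-Hochberg adjusted across the 12909 genes that passed). The same call was made for 45.3% of all genes tested, 21.7% being higher and 23.6% lower, so the share of members called was not above that of genes in general. The median log2 fold change was -0.11 over the 8 members and -0.08 over all genes tested.

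One library bears on every value below. Control replicate 3 stood apart from the other controls (Pearson r of log2 CPM across tested genes 0.918 and 0.922, against 0.993 between control replicates 1 and 2 and 0.990 to 0.993 among the doxycycline libraries), and its difference went with transcript length. Relative to the mean of control replicates 1 and 2, its median log2 level was 0.66 higher for 2860 genes with up to 2 kb of exon sequence and 0.70 lower for 1957 genes over 6 kb. Of the 9 members, 6 have over 4 kb of exon sequence, and 8 were lower in control replicate 3 than in the other controls. They did not all lie near the median of their length class. Between 2 and 4 kb (median 0.12), Tgfb1, Smad4 and Tgif1 were at -1.30, -0.62 and 0.44. Between 4 and 6 kb (median -0.33), Tgfb2 and Smad3 were at -0.66 and -0.88. Over 6 kb (median -0.70), Tgfbr1, Skil, Tgfbr2 and Smad2 were at -1.33, -1.28, -0.98 and -0.32. The cause was not tested. The tested members are therefore given with and without control replicate 3. Library totals were 11258768 to 16803062 counts in the doxycycline group and 8533452 to 14643817 in the control group. Levels are given in CPM, the count of a gene relative to its library total after TMM scaling.

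**Figure D1:**
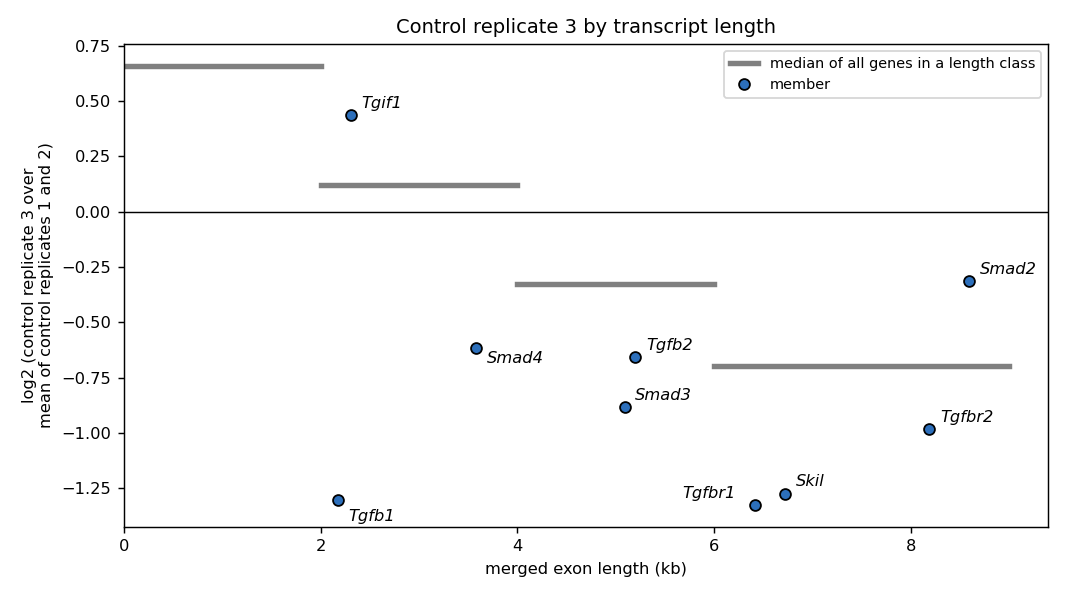
Log2 ratio of control replicate 3 to the mean of control replicates 1 and 2 (vertical axis) against merged exon length in kb (horizontal axis); points are the 9 members and grey lines are medians of all tested genes in 4 length classes. Tgif1 is the one member above 0 (0.44), and Tgfbr1, Tgfb1 and Skil are lowest (-1.33, -1.30 and -1.28).

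The start sites of both receptor genes are shown because these genes carry the main contrast. Each line gives the 250 bases upstream of the RefSeq start, 5′ to 3′ on the gene's own strand, from the GRCm38.p6 table. Capitals mark matches on either strand to GGAATG (the TEAD motif), GTCTG (the short Smad-binding motif, CAGAC on the other strand), its palindrome GTCTAGAC, TGANTCA (AP-1), GGGCGG (the GC box bound by SP1) and TATAAA. The Tgfbr1 window is chr4:47352972-47353221 on the plus strand and the Tgfbr2 window chr9:116175364-116175613 on the minus strand.
Tgfbr1: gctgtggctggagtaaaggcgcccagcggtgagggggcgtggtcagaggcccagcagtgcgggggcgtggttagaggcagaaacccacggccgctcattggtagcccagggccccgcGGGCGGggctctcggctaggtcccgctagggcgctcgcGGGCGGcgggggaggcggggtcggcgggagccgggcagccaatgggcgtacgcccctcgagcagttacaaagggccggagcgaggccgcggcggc
Tgfbr2: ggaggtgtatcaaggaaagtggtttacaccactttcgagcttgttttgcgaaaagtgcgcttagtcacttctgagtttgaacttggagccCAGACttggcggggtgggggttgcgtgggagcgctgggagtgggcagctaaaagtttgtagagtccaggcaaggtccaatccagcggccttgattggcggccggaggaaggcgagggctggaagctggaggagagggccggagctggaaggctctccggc
The Tgfbr1 window held GGGCGG 2 times, 133 and 95 bases before the start, and had a GC content of 74.8%. The Tgfbr2 window held CAGAC 1 time, 160 bases before the start, and had a GC content of 58.4%, where the median over 32851 RefSeq start windows was 52.4%. Of all windows of this length, 42.2% held GTCTG and 32.7% held GGGCGG. Neither receptor window held the TEAD, AP-1 or TATAAA letters, which 12.6%, 6.75% and 12.4% of all windows held, or the palindrome, which 0.167% held. Tgfbr1 has another listed start (chr4:47385966-47386215 for its upstream window), which held GTCTG 1 time. Of the 9 members, 6 have an entry in that table, and the TEAD letters were found in none of their 11 windows. These are matches of letters in short windows and say nothing about binding.

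Of the receptors, Tgfbr2 (Entrez 21813, chromosome 9, 116087695 to 116175363) had 302.7, 328.2 and 324.8 CPM in the doxycycline libraries and 206.0, 211.2 and 105.4 CPM in the control libraries. Every doxycycline library was above every control library, and the lowest value was that of control replicate 3. Its log2 fold change was 0.87 (SE 0.277), with an edgeR adjusted p of 0.0386; without control replicate 3 it was 0.63 (SE 0.0743, adjusted p = 3.46e-07). The call was lost without doxycycline replicate 1, 2 or 3 (adjusted p = 0.0917, 0.113 and 0.107), with the log2 fold change at 0.92, 0.86 and 0.87. It was lost as well when libraries were scaled by total counts alone (0.221).

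Tgfbr1 (Entrez 21812, chromosome 4, 47353222 to 47414926) had 33.0, 30.6 and 36.7 CPM in the doxycycline libraries and 85.2, 85.2 and 33.7 CPM in the control libraries. Control replicate 3 lay within the range of the doxycycline libraries, and the other controls were far above it. The log2 fold change was -1.03 (SE 0.352, 95% interval -1.86 to -0.19) with an edgeR adjusted p of 0.0502, just over the threshold. Without control replicate 3 it was -1.33 (SE 0.0984, adjusted p = 3.66e-10), and with the trend of each library with transcript length removed, an alternative chosen after seeing the data, it was -1.11 (adjusted p = 0.0051). DESeq2 also called it (adjusted p = 0.02), while limma-voom did not (0.0901). In edgeR it was not called with RLE factors (0.0528). There it was called with total counts (0.0118), no filter (0.042) or a filter of 10 counts in 3 libraries (0.0496). With any other library left out the adjusted p was 0.116 to 0.156.

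**Figure D2:**
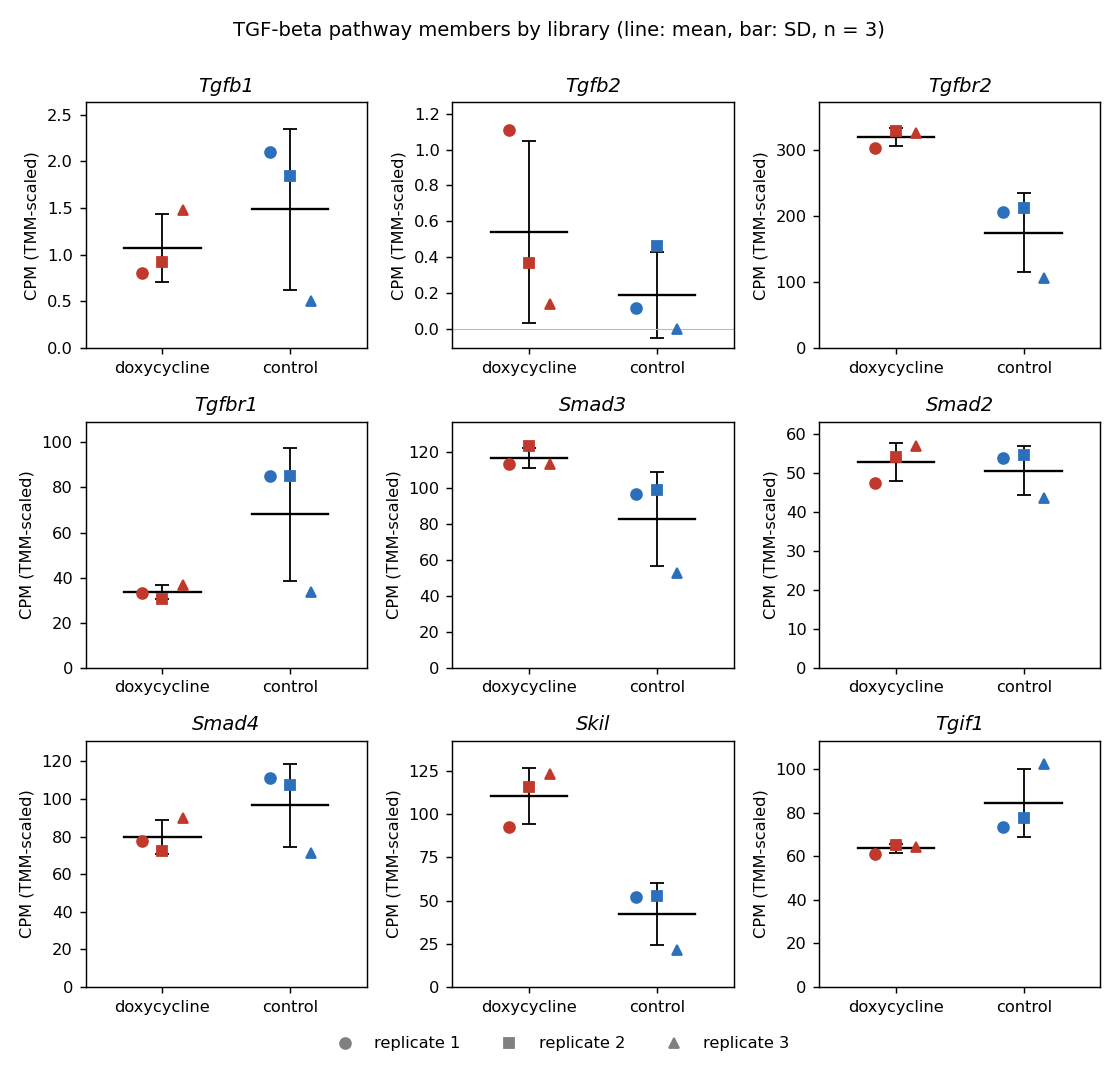
CPM of each member (vertical axes, one panel a gene) in the 3 doxycycline libraries (left) and the 3 control libraries (right); symbols mark replicate numbers, lines are means and bars SD. Groups do not overlap for Tgfbr2, Skil and Smad3, which are higher with doxycycline, or for Tgif1, which is lower; control replicate 3 (triangle) is the lowest control in every panel but that of Tgif1.

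A ratio of the 2 receptors inside each library does not depend on how libraries are scaled. Per kilobase of exon, Tgfbr2 transcripts outnumbered those of Tgfbr1 by 7.18, 8.41 and 6.93 to 1 in the doxycycline libraries and by 1.90, 1.94 and 2.45 to 1 in the control libraries. The groups did not overlap, and control replicate 3 was the highest of the controls. The mean log2 ratio was 2.90 ± 0.148 with doxycycline and 1.06 ± 0.205 in controls (SD, n = 3 each), a 3.59-fold difference with an exact two-sided permutation p of 0.1, the smallest that 3 against 3 libraries allow (0.133 adjusted over the 4 ratios computed). Leaving out 1 library at a time gave log2 differences of 1.76 to 1.96.

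The 3 other ratios were smaller or unstable. Smad3 to Smad2 was 4.05, 3.84 and 3.36 with doxycycline and 3.04, 3.06 and 2.05 in controls, without overlap (exact permutation p = 0.1, 0.133 adjusted). Skil to its paralogue Ski was 0.303, 0.360 and 0.372 with doxycycline and 0.224, 0.233 and 0.183 in controls, also without overlap (exact permutation p = 0.1, 0.133 adjusted). Ski, the founding member of that corepressor family, had 262.4 ± 10.7 CPM with doxycycline and 157.4 ± 53.6 CPM in controls (edgeR adjusted p = 0.0645; 8.5e-06 without control replicate 3). The ratio of Tgfb2 to Tgfb1 overlapped between the groups (exact permutation p = 0.3) and rests on few counts. Non-overlap was common in these data: among single genes, 61.3% of those tested and 4 of the 8 members had groups without overlap in CPM.

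**Figure D3:**
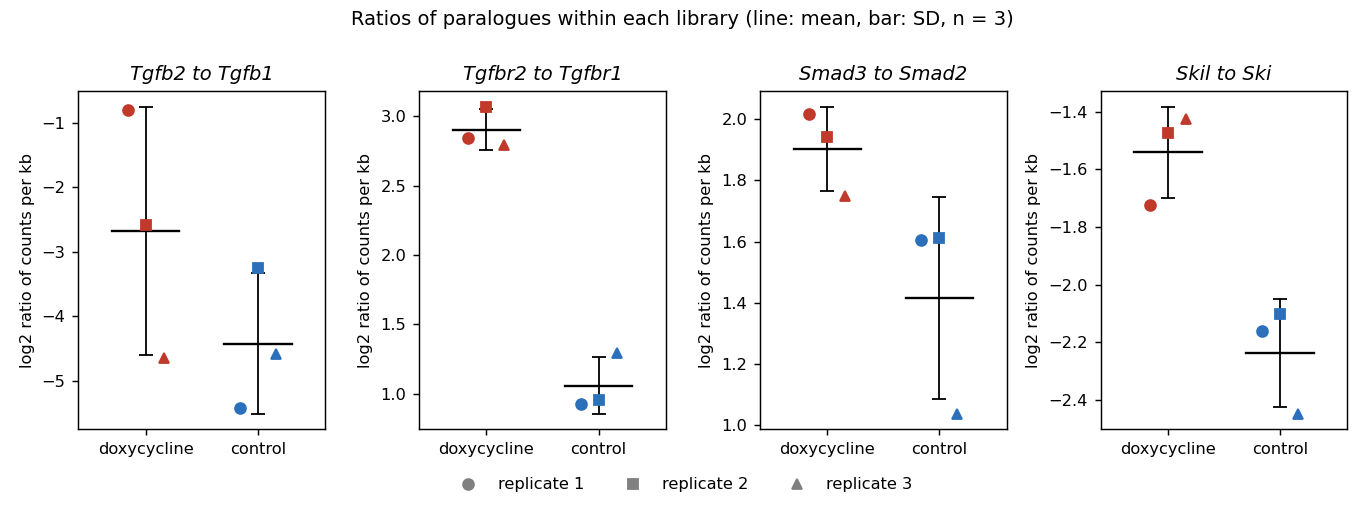
Log2 ratios of counts per kb between related genes inside each library (vertical axes), with the doxycycline libraries left and the control libraries right; lines are means and bars SD (n = 3 each). The Tgfbr2 to Tgfbr1 panel shows the widest gap against its spread, 2.79 to 3.07 with doxycycline and 0.92 to 1.29 in controls.

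The 3 Smads that carry the signal were expressed in all libraries and none was called. Smad3 (Entrez 17127, chromosome 9, 63646766 to 63757994) had 113.4, 123.2 and 113.2 CPM with doxycycline and 96.8, 98.8 and 52.8 CPM in controls. The groups did not overlap, by a narrow margin except for control replicate 3. Its log2 fold change was 0.49 (SE 0.255, 95% interval -0.11 to 1.10, edgeR adjusted p = 0.155) and 0.27 without control replicate 3 (adjusted p = 0.00676).

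Smad2 (Entrez 17126, chromosome 18) had 47.3, 54.2 and 56.9 CPM with doxycycline and 53.8, 54.6 and 43.4 CPM in controls. The groups overlapped, and the 95% interval of the log2 fold change ran from -0.33 to 0.45 around 0.06 (SE 0.166, edgeR adjusted p = 0.791). Smad2 is the member with the least difference, and its sign turned without control replicate 3 (-0.02), with total counts as the only scaling (-0.38) and with the length trend removed (-0.15). Smad4 (Entrez 17128, chromosome 18), the common partner of SMAD2 and SMAD3, had 77.7, 72.2 and 89.9 CPM with doxycycline and 111.0, 107.7 and 71.1 CPM in controls. Control replicate 3 was below all doxycycline libraries and the other controls were above them. Its log2 fold change was -0.27 (SE 0.213, 95% interval -0.78 to 0.23, edgeR adjusted p = 0.332), and without control replicate 3 it was -0.44 (adjusted p = 3.20e-04).

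Of the corepressors, Skil (Entrez 20482, chromosome 3, 31095058 to 31122923), itself a target that TGF-beta induces as negative feedback, had 92.5, 115.5 and 123.3 CPM with doxycycline and 52.2, 52.4 and 21.3 CPM in controls. All doxycycline libraries were above all controls. The log2 fold change reached 1.39 (SE 0.350) at an edgeR adjusted p of 0.0166, the largest of the 8 members tested, and 1.10 without control replicate 3 (adjusted p = 5.58e-08). The call was lost without doxycycline replicate 2 or 3 (adjusted p = 0.0585 and 0.061).

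Tgif1 (Entrez 21815, chromosome 17, 70844205 to 70853532), a homeobox protein, had 61.2, 65.0 and 64.4 CPM with doxycycline and 73.4, 77.7 and 102.4 CPM in controls. Every doxycycline library was lower, and control replicate 3 was here the highest. It did not pass (log2 fold change -0.41, SE 0.175, edgeR adjusted p = 0.095) and was -0.23 without control replicate 3 (adjusted p = 0.0229). Its paralogue Tgif2 fell to 7.56 ± 0.763 CPM with doxycycline, against 54.3 ± 6.23 CPM in controls (SD, n = 3 each), a log2 fold change of -2.84 (SE 0.184, edgeR adjusted p = 9.55e-05).

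Transcripts of the ligands were scarce in every library. Tgfb1 (Entrez 21803, chromosome 7, 25687002 to 25705077) had 8, 10 and 21 counts with doxycycline and 36, 24 and 5 counts in controls, which is 1.07 ± 0.361 and 1.48 ± 0.859 CPM (SD, n = 3 each). The groups overlapped, and the log2 fold change of -0.48 had a 95% interval of -1.79 to 0.83 (SE 0.554, edgeR adjusted p = 0.509). Tgfb2 (Entrez 21808, chromosome 1, 186622787 to 186709697) had 11, 4 and 2 counts with doxycycline and 2, 6 and 0 counts in controls, and it did not pass the expression filter. No difference in Tgfb1 was shown between libraries with this spread, and Tgfb2 was too scarce to test.

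Without control replicate 3, 6 of the 8 members were called, 3 higher (Tgfbr2, Smad3, Skil) and 3 lower (Tgfbr1, Smad4, Tgif1), where 69.9% of all genes tested were called. With the replicate number as a block 1 member was called, against 34.9% of genes. Scaling moved all values: with total counts alone the median gene was at a log2 fold change of -0.52, and 53.3% of genes were called. Tgfbr2 and Skil were then at 0.43 and 0.95 and not called (edgeR adjusted p = 0.221 and 0.0516), while Tgfbr1, Smad4 and Tgif1 were called lower (-1.47, -0.72 and -0.85). Relative to the median gene, Tgfbr2 was 0.95 higher and Tgfbr1 0.94 lower on the log2 scale under both scalings. A change of scaling shifts all genes by nearly the same amount, so this match follows from the arithmetic and does not test the scaling.

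**Figure D4:**
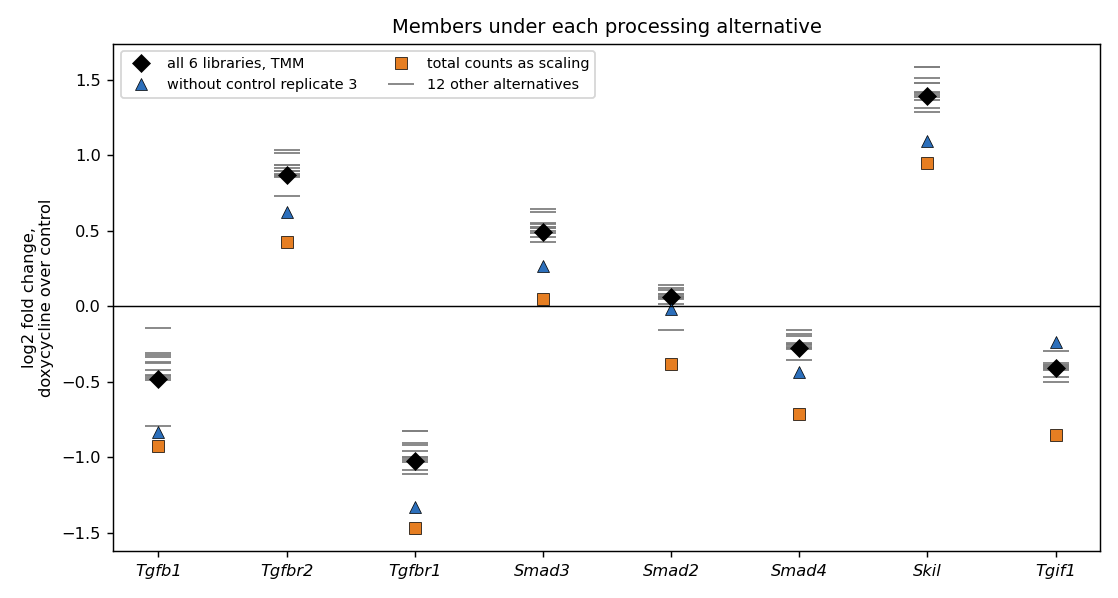
Log2 fold change of doxycycline over control (vertical axis) for the 8 members tested, with all libraries and TMM scaling (diamonds), without control replicate 3 (triangles), with total counts as scaling (squares) and under 12 other alternatives (grey dashes). Tgfbr2, Smad3 and Skil stay above 0 and Tgfb1, Tgfbr1, Smad4 and Tgif1 below 0 under all of these, and Smad2 lies on both sides.

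Levels of different genes can be compared only per length, here as CPM per kilobase of merged exons. With doxycycline the order was Tgfbr2 (38.9 ± 1.70), Tgif1 (27.6 ± 0.876), Smad3 (22.9 ± 1.13), Smad4 (22.4 ± 2.53), Skil (16.4 ± 2.38), Smad2 (6.14 ± 0.577), Tgfbr1 (5.22 ± 0.480), Tgfb1 (0.493 ± 0.166) and Tgfb2 (0.104 ± 0.0975) CPM per kilobase (SD, n = 3). Smad3 overlapped Smad4 in that order, and Smad2 overlapped Tgfbr1. In controls Tgif1 (36.6 ± 6.78) and Smad4 (27.0 ± 6.19) led, followed by Tgfbr2 (21.3 ± 7.29), Smad3 (16.3 ± 5.11), Tgfbr1 (10.6 ± 4.64), Skil (6.25 ± 2.66) and Smad2 (5.89 ± 0.723) CPM per kilobase, and from Smad4 down to Smad2 each gene overlapped its neighbour. The ligands came last in both groups, with Tgfb1 at 0.682 ± 0.395 and Tgfb2 at 0.0371 ± 0.0461 CPM per kilobase in controls.

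By the root mean square distance of centred log2 CPM over the 6 libraries, the gene nearest to Skil among 10100 compared was Atxn1 (distance 0.0358, where the median gene was at 0.933), the gene nearest to Tgfbr2 was Gosr1 (0.0311, median 0.700) and the gene nearest to Tgfbr1 was Zfp451 (0.0494, median 0.786). Atxn1 had 105.2 ± 13.6 CPM with doxycycline and 40.1 ± 16.7 CPM in controls, and Gosr1 had 129.9 ± 7.09 and 72.5 ± 24.6 CPM in the same order. The call for Gosr1 (edgeR adjusted p = 0.0413) was lost with total counts (0.247) and without doxycycline replicate 1, 2 or 3 (0.0939 to 0.120), and that for Atxn1 (0.0147) without doxycycline replicate 2 or 3 (0.0549 and 0.0548). Zfp451 had 20.7 ± 1.89 CPM with doxycycline and 43.6 ± 19.9 CPM in controls. The smallest of 10100 distances lies far below the median by selection. Genes with nearly the same 6 values also tend to gain and lose calls in the same settings.

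Around these genes, 9 further lists of the pathway held 122 genes, of which 84 were tested, 31 rose and 18 fell (median log2 fold change 0.51). Among all genes tested 45.3% were called, 21.7% higher and 23.6% lower, and each list count below is to be read beside that share. With total counts as the only scaling 17 rose and 23 fell, where 53.3% of all genes were called. Of the single genes followed outside the member list, 38 were called, and without control replicate 3 all 38 were called with the same sign, their log2 fold changes moving by at most 0.43. These 38 were picked by their values in the same libraries, and 69.9% of all genes were called without control replicate 3. That they stayed called is therefore no independent support. Upstream of the receptors, 2 of 9 other ligands were tested, and both fell: Gdf11 had 4 counts over the doxycycline libraries and 129 over the controls, and the Nodal antagonist gene Lefty1 had 3 and 57. The scaled ratio of controls to doxycycline was 28.1 for Gdf11 and 16.5 (95% exact interval 5.38 to 82.6) for Lefty1. All 4 Gdf11 counts were in doxycycline replicate 1, without which Gdf11 was at least 26.8-fold lower, and the ratio was 16.7 without doxycycline replicate 3; for Lefty1 it was 34.2 without doxycycline replicate 2.

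Of 7 tested genes that store or release latent TGF-beta, 4 rose and 0 fell, with a median of 0.91, where 21.7% of all genes rose. The integrin chains Itgb6 and Itgav, which together form the receptor that activates latent TGF-beta on epithelia, had 61.5 ± 5.36 and 82.7 ± 5.79 CPM with doxycycline and 18.6 ± 3.45 and 31.7 ± 13.1 CPM in controls (log2 fold changes 1.73 and 1.38, edgeR adjusted p = 5.66e-04 and 0.0136). The protease gene Furin, which cleaves the precursor, rose to 169.2 ± 3.35 CPM, against 89.7 ± 19.9 CPM in controls, and the plasminogen activator gene Plau to 3.45 ± 0.638 CPM, against 0.746 ± 0.113 CPM. The call for Itgav was lost without doxycycline replicate 2 or 3 (adjusted p = 0.0501 and 0.05001), and that for Furin with total counts as the scaling (0.0827). Among extracellular inhibitors, the activin-binding Fstl3 rose to 19.3 ± 3.00 CPM, against 1.12 ± 0.438 CPM in controls (log2 fold change 4.13, adjusted p = 1.91e-04). Its relative Fstl1 fell, with 4 counts over the doxycycline libraries and 365 over the controls; all 4 were in doxycycline replicate 3, without which it was at least 62.9-fold lower.

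Of 7 co-receptors and activin-type receptors tested, 1 rose and 3 fell (median -0.45), where 21.7% of all genes rose and 23.6% fell. Acvr2a, a type II receptor for activins, rose to 133.1 ± 3.74 CPM with doxycycline, against 61.7 ± 21.3 CPM in controls, a call lost when doxycycline replicate 1, 2 or 3 was left out (adjusted p = 0.051 to 0.0577) and with total counts (0.0765). Acvr2b, its paralogue, fell to 1.62 ± 0.586 CPM, against 6.17 ± 0.925 CPM in controls. Acvr1c, a type I receptor for Nodal and activins, fell to 0.690 ± 0.128 CPM, against 5.58 ± 3.57 CPM. Bambi, a pseudoreceptor that blocks signalling, had 0.305 ± 0.143 CPM with doxycycline and 3.07 ± 0.804 CPM in controls and fell by 3.33 on the log2 scale (adjusted p = 0.00172).

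Among intracellular inhibitors, Smad7, the inhibitory Smad that binds TGFBR1 and is induced by the pathway itself, had 171.2, 201.6 and 186.8 CPM with doxycycline and 18.4, 17.9 and 8.04 CPM in controls. All doxycycline libraries were far above all controls, with a log2 fold change of 3.65 (SE 0.337, edgeR adjusted p = 3.24e-04; 3.37 without control replicate 3). Of the 16 genes in that list 5 rose and 2 fell (median 0.15), which is not above the 45.3% of all genes called. With total counts 2 rose and 4 fell. In this list 3 were called without doxycycline replicate 1, 2 or 3. Calls over all genes were then 4246 of 13334, 3862 of 13211 and 3836 of 13184 tested, against 5850 of 12909 with all libraries. Without control replicate 3, 11 were called, where 69.9% of all genes were. Pmepa1, which sequesters SMAD2 and SMAD3, rose to 83.2 ± 0.736 CPM, against 37.1 ± 11.0 CPM in controls, and Ppm1a, a phosphatase described for SMAD2 and SMAD3, to 370.4 ± 5.78 CPM, against 227.5 ± 20.98 CPM (not called with total counts, adjusted p = 0.179). The deubiquitinase gene Usp11 fell to 0.629 ± 0.0211 CPM, against 1.96 ± 0.742 CPM, a call lost when doxycycline replicate 1, 2 or 3 was left out (0.062 to 0.0695).

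Of 15 tested genes of the Ski and Tgif families and other Smad partners, 0 rose and 4 fell (median -0.05). Without control replicate 3, 6 rose and 6 fell, where 69.9% of all genes were called. Besides Tgif2, the p107 gene Rbl1 fell to 17.2 ± 3.16 CPM, against 44.0 ± 3.60 CPM in controls, its E2F partner gene Tfdp1 to 85.7 ± 14.6 CPM, against 196.5 ± 8.93 CPM, and the corepressor scaffold gene Sin3a to 29.6 ± 3.12 CPM, against 70.6 ± 13.0 CPM. In the branch through the kinase TAK1, 4 of 10 rose and 2 fell (median 0.47); 0 rose and 2 fell with total counts. Map2k6 fell to 1.97 ± 0.322 CPM with doxycycline, against 13.4 ± 1.68 CPM in controls (adjusted p = 2.54e-04). Map2k3, another p38 kinase kinase gene, had 224.7 ± 17.2 CPM with doxycycline and 134.5 ± 30.9 CPM in controls (adjusted p = 0.0227), Mapk14 had 173.6 ± 12.1 and 110.8 ± 17.1 CPM in that order (0.021) and Tab1 32.8 ± 0.733 and 54.6 ± 10.9 CPM (0.0162). The calls for Map2k3, Mapk14 and Tab1 were lost when doxycycline replicate 1, 2 or 3 was left out (adjusted p = 0.0636 to 0.0849). In these runs 1 gene of this branch was called, and calls over all genes fell from 5850 to 4246, 3862 and 3836. The call for Map2k3 was also lost without control replicate 1 or 2 (0.0672 and 0.0737), and those for Map2k3 and Mapk14 with total counts (0.249 and 0.360).

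**Figure D5:**
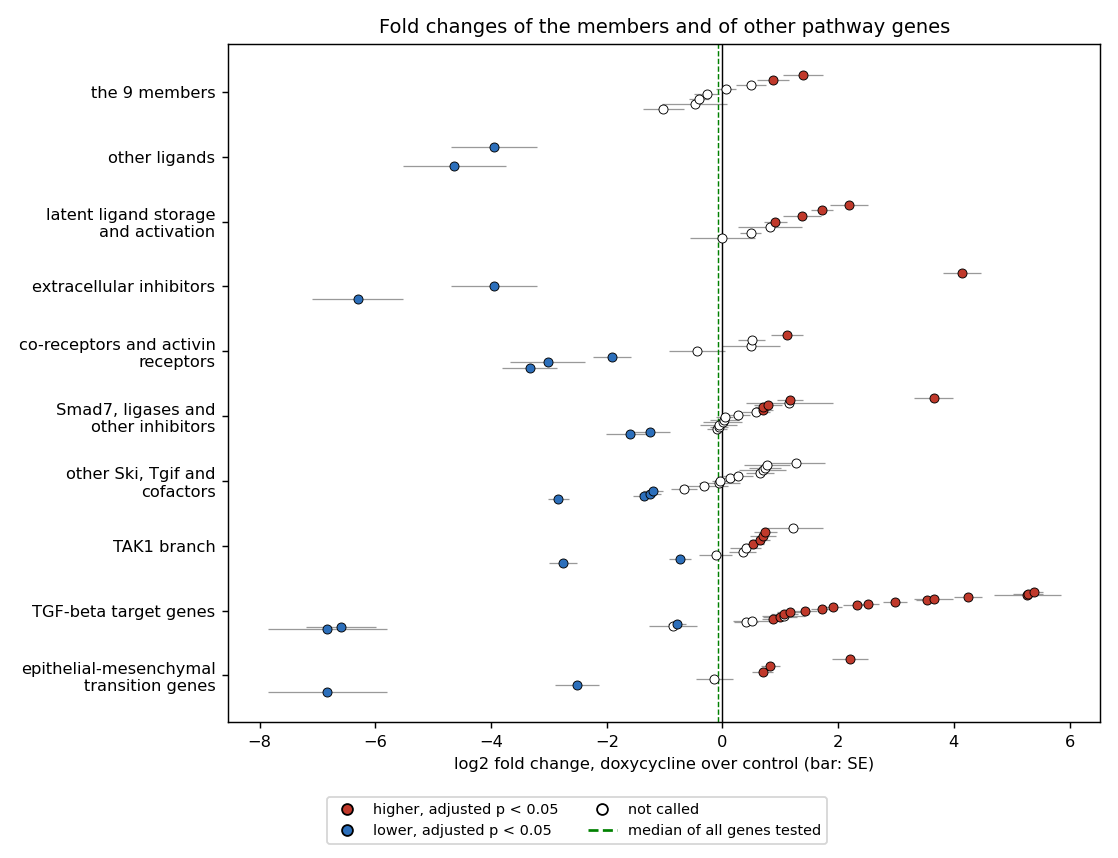
Log2 fold change of doxycycline over control (horizontal axis, bars SE) of every tested gene in the member list and 9 further pathway lists (rows); red is higher and blue lower at an adjusted p under 0.05, white is not called, and the dashed line is the median of all genes tested. The members lie between -1.03 and 1.39, and the target list reaches from -6.83 to 5.38.

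Genes known as TGF-beta targets moved mostly up. Of 23 tested, 16 rose and 3 fell, with a median of 1.42 (13 and 4 with total counts). The list was not split by the direction in which TGF-beta moves each gene. These are thus counts of direction in the data, not of a response to TGF-beta. The list shares Smad7, Pmepa1, Itgb6 and Snai2 with others above and below. Ccn2, a matricellular gene that YAP and TEAD also induce, had 144.2 ± 4.67 CPM with doxycycline and 3.45 ± 0.118 CPM in controls (log2 fold change 5.38, SE 0.167, edgeR adjusted p = 2.25e-05). Id1 and Id3, inhibitors of helix-loop-helix factors that are best known as BMP targets, had 469.3 ± 10.2 and 284.6 ± 17.2 CPM with doxycycline and 40.6 ± 6.59 and 15.0 ± 3.92 CPM in controls. Cdkn2b, the gene of the cell cycle inhibitor p15, was singled out after its values were seen. It rose to 291.6 ± 7.81 CPM, against 77.2 ± 0.626 CPM in controls. Control replicates 1, 2 and 3 were at 77.6, 76.4 and 77.4 CPM.

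Myc and Lmcd1, which fell, were likewise picked out by their values. Myc fell to 144.3 ± 11.8 CPM with doxycycline, against 248.8 ± 11.2 CPM in controls. Snai2 had 0 counts over the doxycycline libraries and 44 over the controls, at least 12.8-fold lower against 3 counts over the group (7.58-fold without doxycycline replicate 3). Lmcd1, a LIM protein gene, had 3 counts over the doxycycline libraries and 359 over the controls, a scaled ratio of controls to doxycycline of 104.2 (95% exact interval 35.4 to 507.6), or 224 without doxycycline replicate 1. Several genes of this list are known to have inducers other than TGF-beta, and their part in the counts was not tested.

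Of 14 genes of the epithelial-mesenchymal transition, a change that TGF-beta drives in many epithelia, 6 were tested, of which 3 rose and 2 fell (median 0.28; 1 and 2 with total counts). The genes that rose were Cdh1, which encodes E-cadherin, and the tight junction genes Tjp1 and Ocln, with Tjp1 at 549.8 ± 23.6 CPM with doxycycline and 119.1 ± 44.9 CPM in controls and Ocln at 273.7 ± 6.95 and 154.3 ± 21.03 CPM in that order; the call for Ocln was lost with total counts (adjusted p = 0.0828). Cdh1 had 1297 ± 35.4 CPM with doxycycline and 799.3 ± 140.2 CPM in controls (adjusted p = 0.018). Cdh1 did not pass with total counts (0.265) or when doxycycline replicate 1, 2 or 3 was left out (0.0643 to 0.0687). The mesenchymal filament gene Vim fell to 0.825 ± 0.272 CPM, against 4.85 ± 1.28 CPM in controls, and Snai2 fell as given above. The 8 genes below the expression filter were Zeb1, Zeb2, Twist1, Twist2, Snai1, Cdh2, Fn1 and Cldn1.

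The cultures were mainly epithelial by their markers. All 8 markers of intestinal epithelium were tested, of which 5 rose and 1 fell. The one that fell was Cdx1, at 16.5 ± 0.909 CPM with doxycycline and 292.3 ± 60.0 CPM in controls (edgeR adjusted p = 5.36e-05). None of 9 mesenchymal markers was tested. They summed to 0.370 to 0.606 CPM with doxycycline and 0.154 to 1.21 CPM in controls, with Col1a1, Dcn and Lum at 0 counts in all 6 libraries. Immune markers summed to 29.8 to 31.9 CPM with doxycycline and 23.1 to 45.8 CPM in controls, and endothelial ones to 1.41 to 3.11 and 1.05 to 1.46 CPM in that order, with Kdr at 0 and Tek, the one tested, higher. Markers of epithelial cell types differed between the groups. All 5 stem cell markers fell, summing to 44.0 to 50.3 CPM with doxycycline and 3883 to 5327 CPM in controls, and so did all 5 Paneth cell markers (34.1 to 39.0 CPM with doxycycline and 2292 to 4674 CPM in controls). Of 8 enterocyte markers 6 rose (summed 16400 to 17230 CPM with doxycycline and 1836 to 3123 CPM in controls). In bulk RNA, fewer cells of a type and less RNA per cell cannot be told apart, and the part of this shift in the values of the receptors, Skil and Smad7 was not tested.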

How the data were processed

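The authors deposited whole-number read counts per Entrez gene for 6 libraries; libraries were made with a TruSeq RNA kit and run on a NextSeq, per the labels' protocols, with mm10 as the genome build per the submitters' processing notes. Aligner, counter, annotation and use of strand are not given in the sources used here. In the RefSeq table, Tgfb2, Tgfbr1, Tgfbr2 and Smad3 overlap unlisted non-coding genes, so their counts could hold reads of these. Symbols and positions came from RefSeq (GRCm38.p6; 24570 of 24594 IDs matched; the 24 others held 2.88 to 4.43% of counts and stayed in). Exon lengths are merged exons of GENCODE M21.

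Counts were tested with edgeR 4.0.16 in R 4.3.3: filter by group, TMM, and a robust quasi-likelihood F-test between the groups, Benjamini-Hochberg over 12909 genes, threshold 0.05. SE is the fold change over the root of F. The code was tested on simulated counts with known changes. It called 38% of the genes changed 2-fold and 100% of those changed 4-fold, with 3 false calls among unchanged genes. The simulation changed far fewer genes than the 5850 called in the data, so these shares need not hold there. A change of 2-fold or less may still go uncalled. Alternatives were RLE factors, total counts, no filter, 10 counts in 3 libraries, DESeq2 1.42.0, limma-voom (limma 3.58.1), leaving out each library, a replicate block, a threshold of 0.01 and, added after seeing the data, removal of a length trend. Ratios were tested by exact permutation, with 0.5 counts in place of 0. Bounds use 3 counts over a group; bounds and intervals of ratios cover counting error only.

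The members and lists were chosen with earlier results of these data known. The text names all members, up to 4 genes with the smallest adjusted p in each pathway list, and the gene nearest in pattern to each of the 3 members with the smallest adjusted p, which had to average at least 5 CPM. Ski was named as the paralogue in a ratio; Cdkn2b, Myc, Lmcd1 and Cdh1 were named after their values were seen. Some genes of the lists are not reported by name here.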

Additional observations from a re-analysis of the deposited data

How the results depend on the processing

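The count of 2 members called was 1 with the replicate block, where Tgfbr2 had an adjusted p of 0.0551, and 0 at a threshold of 0.01; it was 0 to 6 with single libraries left out, and 2 or 3 under every other alternative run. Over all genes, 5850 calls became 3477 at that threshold and 3836 to 9286 with single libraries left out, the highest without control replicate 3. Calls over the 9 further lists (49) stayed within 36 to 68, with 40 under the replicate block. Smad2 changed sign with total counts (-0.38), without control replicate 3 (-0.020) and with the length trend removed (-0.15). It reached up to 0.144 with other libraries left out. With total counts the median gene moved from -0.08 to -0.52, and Smad2 was 0.14 above that median under both scalings. The cause of its sign change in the other settings was not tested. Of the 48 genes followed through the alternatives, tested members included, no other changed sign. With total counts 25.4% of the calls over all genes were higher, against 47.9% with TMM. Same-numbered libraries of the groups did not deviate together (r of -0.299, 0.119 and -0.187 for replicates 1, 2 and 3), so the numbers do not pair them; the block gave 4509 calls over all genes. Under it the calls for Usp11 (adjusted p = 0.0534), Tab1 (0.0529), Mapk14 (0.0600), Map2k3 (0.0589), Cdh1 (0.0517) and Gosr1 (0.0632) were lost too, and the branch through TAK1 had 1 call in place of 6. Ratios of paralogues kept their direction in all runs that left out a library. The replicate block gave the same mean differences (1.85 for Tgfbr2 to Tgfbr1), as a block holding 1 library of each group must. With the longest transcript in place of merged exons, Tgif1 was at 37.1 CPM per kilobase with doxycycline and 49.3 in controls, and Smad4 ranked above Smad3 with doxycycline. Depth limits the ligands: Tgfb1 and Tgfb2 had at most 36 and 11 counts in a library.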
